A study of Mus musculus with 6 samples.

Results

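The machinery of mitosis was followed through 50 genes in haematopoietic stem cells (HSCs) of old and young mice. At an adjusted p under 0.05 in edgeR, 28 of them (56%) were lower in old mice, against 1.54% of all genes tested. The 50 are mitotic kinases and cyclins and genes of chromosome structure, the spindle, the kinetochore checkpoint, anaphase and cytokinesis, with the transcription factors that drive them. They were listed by symbol and matched by Ensembl identifier to the deposited count table, with kinesins and centromere (Cenp) genes left out, and all 50 were found among its 16312 genes. The old group held 3 libraries from male mice aged 22 months, and the young group held 3 libraries from male mice aged 8 to 12 weeks. All 6 were labelled as B6 controls within a parabiosis study, in which animals are joined surgically, and the series title names the strain C57BL/6N. HSCs were sorted from bone marrow by flow cytometry and their RNA was sequenced after low-input library preparation. The surface markers of the sort, the number of cells sorted and whether mice were pooled are not given in the sources, so n counts libraries. A lower level in such bulk RNA can come from fewer cells of a type or from less RNA per cell, and these cannot be told apart.

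As background, a cell enters mitosis when the kinase Cdk1, bound to an A-type or B-type cyclin, becomes active. Chromosomes then condense, a spindle forms, and kinetochores attach to its microtubules while a checkpoint holds back anaphase. The anaphase-promoting complex later marks cyclins and securin for destruction, separase opens the cohesin rings that hold sister chromatids, and cytokinesis parts the daughter cells. Most of these transcripts are made late in the cell cycle under the transcription factors Mybl2 and Foxm1 and are scarce in resting cells. Most HSCs of adult marrow are known to rest outside the cell cycle.

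Total counts ran from 12494557 to 23583985 in the old libraries and from 21386745 to 30931680 in the young libraries, and the filter on low counts left 14288 genes. HSC markers such as Kit, Procr and Mecom summed to between 3881 and 4291 CPM (counts scaled to a common library size) in old libraries and to between 3653 and 4165 CPM in young ones, with all 12 in the table and Procr and Slamf1 called higher. Without Hlf, the most abundant, the HSC markers summed to 2839 to 3116 CPM in old and 2452 to 2716 CPM in young libraries, which did not overlap. Markers of multipotent progenitors, of which 3 of the 7 tested (Cd34, Flt3 and Satb1) were called lower, summed to 326 to 355 CPM in old and 447 to 527 CPM in young libraries, or 84.8 to 96.7 CPM in old and 208 to 226 CPM in young without Cd27, the most abundant. Of 9 erythroid markers tested Car1, Ermap, Klf1 and Rhag were called lower. Erythroid markers summed to 87.2 to 102.5 CPM in old libraries, and to 419, 154 and 128 CPM in young replicates 1 to 3. Of 14 monocyte and macrophage markers 8 were called lower, with sums of 215 to 234 CPM in old and 227 to 262 CPM in young libraries, and Fcna, Cd5l, C1qb and Adgre1 were at 0 in all 3 old libraries. Lyz2, the most abundant of these, was not called, and without it the rest summed to 34.7 to 44.4 CPM in old and 88.5 to 114 CPM in young libraries. Of 6 neutrophil markers tested 4 were called lower and Prtn3 higher. Neutrophil markers summed to 75.2 to 103 CPM in old libraries, and to 265, 45.9 and 73.4 CPM in young replicates 1 to 3. Without Prtn3 the sums were 5.69 to 8.70 CPM in old and 16.7 to 238 CPM in young libraries. Megakaryocyte markers summed to 561 to 690 CPM in old and 239 to 311 CPM in young libraries, with 2 of 9 (Itgb3 and Vwf) called higher. T and NK cell markers summed to 70.2 to 86.0 CPM in old and 16.7 to 33.4 CPM in young libraries with 1 of 5 (Klrb1c) called higher, without which they summed to 8.38 to 12.6 CPM in old and 13.0 to 22.3 CPM in young. Endothelial markers summed to 195 to 238 CPM in old and 124 to 193 CPM in young libraries with 2 of 5 called higher. B cell markers stayed between 17.0 and 20.8 CPM in old and between 17.5 and 21.9 CPM in young libraries, with none of 3 called by edgeR and all 3 at an unadjusted p above 0.05. The part of any of these markers in the results on mitosis was not tested.

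Of the 50 mitosis genes, all of which passed the filter, 28 were called lower in old HSCs (56%) and none was called higher. A call means an adjusted p under 0.05 in edgeR's quasi-likelihood test with Benjamini-Hochberg adjustment over all 14288 genes. Of all genes tested 570 (3.99%) were called, 220 (1.54%) of them lower and 350 (2.45%) higher. With library size alone as the scale, those counts over all genes were 298 lower and 310 higher, and 32 mitosis genes were called lower. At an unadjusted p under 0.05, 39 mitosis genes were lower and 1, Pttg1, was higher, where 7.63% of all genes were lower and 8.84% higher. DESeq2 called 37 lower and none higher, against 487 lower and 613 higher over all genes. With limma-voom 28 were lower and none higher, against 201 lower and 363 higher over all genes. The fitted log2 fold change of old over young was negative for 49 of the 50, with a median of −0.92, beside −0.02 over all genes tested. In 41 of the 50 the 3 old libraries all lay below the 3 young ones, an order found in 10.8% of all genes, and in 8 the groups overlapped. At least a 2-fold reduction together with a call was found for 17 mitosis genes, against 1.01% of all genes.

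Summed over the 50 genes, the level was 3329, 3761 and 2654 CPM in old replicates 1 to 3, against 6635, 5620 and 6445 CPM in young replicates 1 to 3. The 3 old sums all lay below the 3 young ones, and the group means were 3248 ± 558 CPM in old and 6233 ± 540 CPM in young mice (SD, n = 3 each), a ratio of 0.521. Mki67 and Top2a made up a large part of both sums, and without them the remaining 48 genes summed to 2065 ± 307 CPM in old and 3639 ± 311 CPM in young mice (SD, n = 3 each), a ratio of 0.567.

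In these genes the old libraries varied among themselves over a wider relative range than the young ones, a difference that was not tested. Old replicate 3 held the lowest of the 6 values for 37 of the 50 genes, and within the old group old replicate 2, the shallowest library, held the highest value for 32. The median ratio of a library to the young mean was 0.527, 0.631 and 0.427 in old replicates 1 to 3. The median coefficient of variation of the 50 genes was 22.4% in the old and 14.1% in the young group, against 16.9% in old and 20.6% in young over all genes tested. Leaving out 1 library at a time gave 13, 22 and 12 genes called lower without old replicates 1, 2 and 3, and 20, 22 and 16 without young replicates 1, 2 and 3. The 12 genes called in every one of these fits were Mki67, Top2a, Knl1, Bub1b, Ccna2, Cdk1, Tpx2, Ckap2, Nusap1, Aurkb, Cdca8 and Ect2. The labels number the old libraries consecutively and the young ones not, so a step that followed those numbers cannot be told apart from age.

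**Figure D1:**
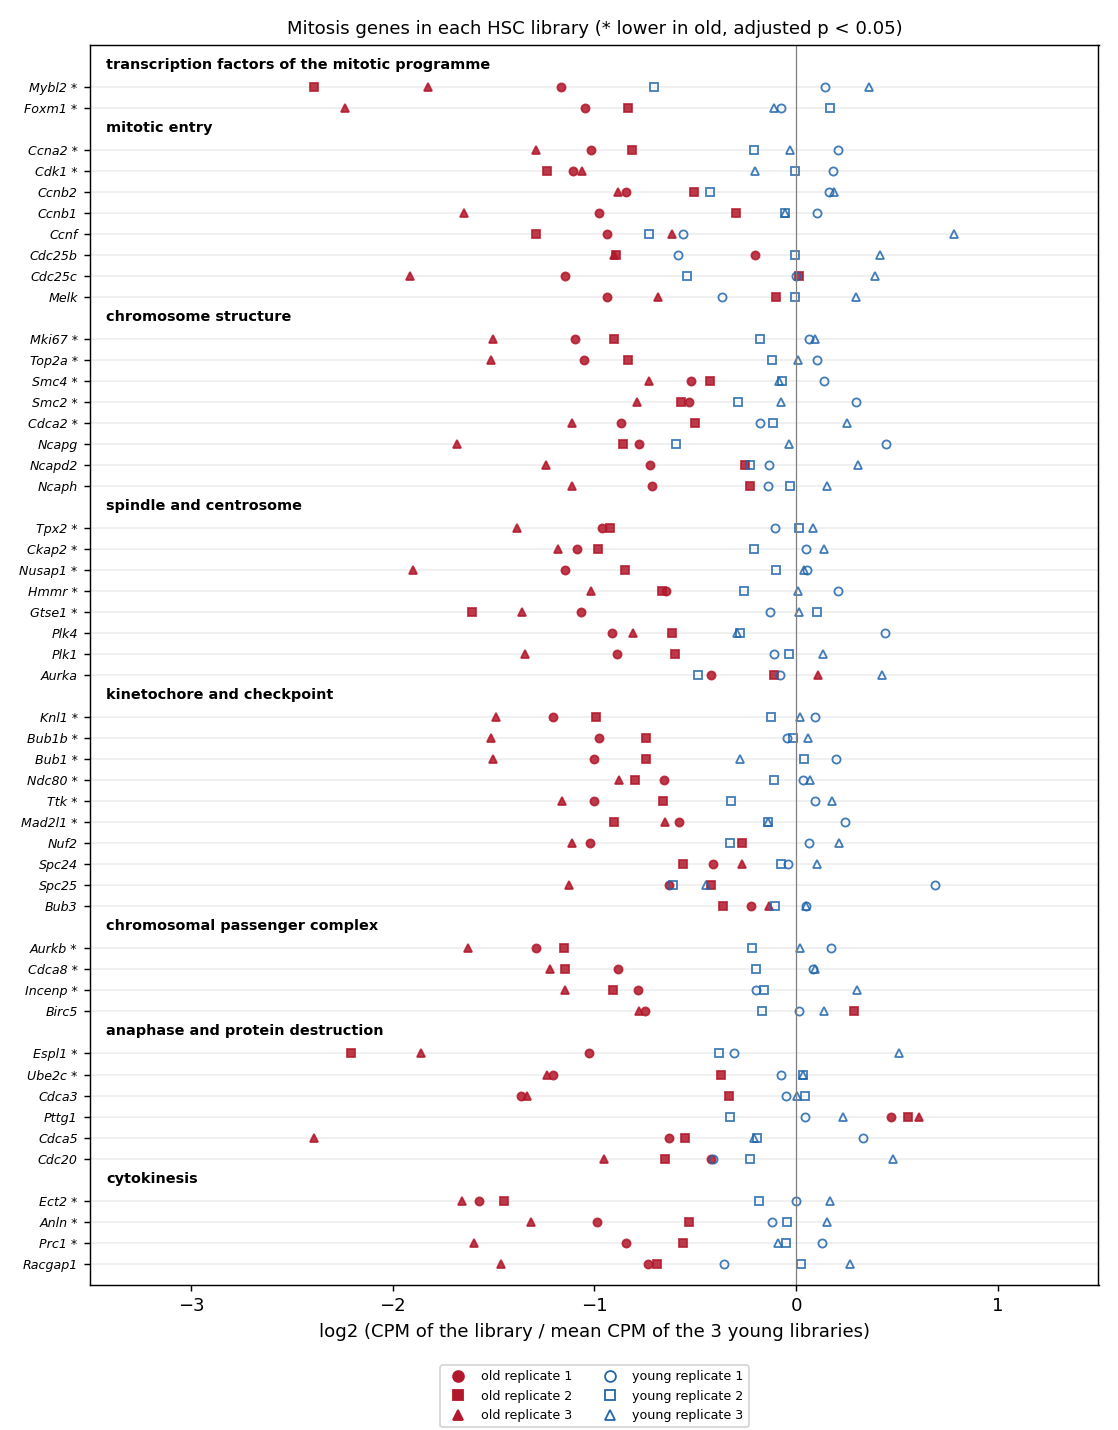
Level of each of the 50 mitosis genes in each library, as log2 of its CPM over the mean of the 3 young libraries, with genes grouped by step of mitosis and old and young libraries as separate symbols. Old points lie left of the young points without overlap in 41 genes, old replicate 3 is lowest in 37, and Pttg1 is the gene with all old points to the right.

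Promoters of these genes carry elements of late cell-cycle transcription, which are shown because Mybl2 and Foxm1, which act through them, are among the 50. The cell-cycle genes homology region (CHR, searched as TTTGAA and TTTAAA) is the element bound by the MuvB complex, with which Mybl2 and Foxm1 act, and the CCAAT box (CCAAT) is bound by the factor NF-Y. E2F sites (searched as TTCCCGC and TTGGCGC) are read earlier in the cycle. RefSeq promoter windows of GRCm38.p6, 250 bases before to 50 bases after the gene start, were at hand for 41 of the 50 genes, and both strands were searched. A CHR was found in 32 of the 41 genes (78%) against 30.6% of the 27025 genes with a window, and a CCAAT box in 28 (68.3%) against 41.1% of all genes. Both stood in the windows of 26 genes (63.4%), against 12.2% of all genes. At least 2 CCAAT boxes stood in 19 (46.3%, against 13.3%), and an E2F site stood in 9 (22%, against 7.79%). These matches are letters in a window, not measured binding, and an E2F match can overlap a CCAAT box, as in Ect2, or a CHR a CCAAT box, as in Cdca8.

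Stretches of the windows follow for 6 genes called lower, from 5 steps (chromosome structure, with both Mki67 and Top2a, mitotic entry, the passenger complex, anaphase and cytokinesis), and for the 3 genes Aurka, Bub3 and Pttg1 that were not called, so that both kinds can be set side by side. Each runs from 160 bases before to 30 bases after the RefSeq start, 5′ to 3′ on the strand of the gene. Capitals mark matches to the searched letters on either strand.
Mki67: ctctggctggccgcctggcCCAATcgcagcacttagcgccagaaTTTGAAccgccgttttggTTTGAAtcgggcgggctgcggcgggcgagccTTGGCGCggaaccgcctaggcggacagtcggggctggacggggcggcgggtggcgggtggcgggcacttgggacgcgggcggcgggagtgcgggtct
Top2a: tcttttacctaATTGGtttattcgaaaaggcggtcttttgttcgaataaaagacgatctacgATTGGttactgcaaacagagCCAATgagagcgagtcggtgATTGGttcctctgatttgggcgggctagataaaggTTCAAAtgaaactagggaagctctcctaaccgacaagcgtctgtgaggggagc
Cdk1: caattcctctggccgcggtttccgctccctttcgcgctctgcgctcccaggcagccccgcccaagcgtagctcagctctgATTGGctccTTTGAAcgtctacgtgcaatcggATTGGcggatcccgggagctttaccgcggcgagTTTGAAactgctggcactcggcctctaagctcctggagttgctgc
Cdca8: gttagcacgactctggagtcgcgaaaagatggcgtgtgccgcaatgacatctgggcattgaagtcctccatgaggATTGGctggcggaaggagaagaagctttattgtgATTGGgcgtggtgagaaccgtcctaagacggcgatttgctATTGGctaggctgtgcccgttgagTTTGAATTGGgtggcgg
Ube2c: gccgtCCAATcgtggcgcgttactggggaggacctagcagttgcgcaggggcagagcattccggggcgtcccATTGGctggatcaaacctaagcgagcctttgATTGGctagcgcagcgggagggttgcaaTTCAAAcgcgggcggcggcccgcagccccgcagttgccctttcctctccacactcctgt
Ect2: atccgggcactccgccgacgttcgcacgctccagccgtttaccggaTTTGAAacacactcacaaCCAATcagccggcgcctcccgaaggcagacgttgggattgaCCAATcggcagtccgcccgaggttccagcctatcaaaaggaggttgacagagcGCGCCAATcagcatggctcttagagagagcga
Mki67 lies at chr7:135716350-135716539 (minus strand), Top2a at chr11:99024160-99024349 (minus), Cdk1 at chr10:69352883-69353072 (minus), Cdca8 at chr4:124936888-124937077 (minus), Ube2c at chr2:164769769-164769958 (plus) and Ect2 at chr3:27153849-27154038 (minus) in GRCm38.p6.
Aurka: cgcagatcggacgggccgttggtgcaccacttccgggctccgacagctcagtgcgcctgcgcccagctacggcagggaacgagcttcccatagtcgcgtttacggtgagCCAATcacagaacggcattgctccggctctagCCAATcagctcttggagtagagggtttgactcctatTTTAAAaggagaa
Bub3: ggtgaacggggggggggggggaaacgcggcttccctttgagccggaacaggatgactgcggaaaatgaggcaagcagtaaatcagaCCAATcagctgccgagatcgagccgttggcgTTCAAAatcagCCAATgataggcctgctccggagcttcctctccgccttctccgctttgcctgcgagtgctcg
Pttg1: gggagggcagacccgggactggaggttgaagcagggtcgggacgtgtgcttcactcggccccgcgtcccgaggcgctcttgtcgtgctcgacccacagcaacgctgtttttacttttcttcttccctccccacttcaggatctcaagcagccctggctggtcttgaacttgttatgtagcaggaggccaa
The Aurka stretch lies at chr2:172370541-172370730 (minus), that of Bub3, the upstream of its pair of RefSeq starts, at chr7:131560210-131560399 (plus), and that of Pttg1 at chr11:43425952-43426141 (minus). Aurka and Bub3 each show a CHR and CCAAT boxes, as do Cdk1 and Ect2, while the Pttg1 stretch shows none of the searched letters. That stretch follows a RefSeq start inside the annotated span of Pttg1 (chr11:43420250-43426251). The bases before the annotated start of Pttg1 were not searched, so its promoter cannot be set against the others here. Every stretch shown of a gene called lower holds a CHR and a CCAAT box, but other genes called lower differ. The same stretch holds none of the searched letters in Mybl2, Nusap1, Mad2l1 and Knl1, and CCAAT boxes without a CHR in Bub1. Among genes with a window, those called lower held a CHR in 17 of 21 (81%) and a CCAAT box in 15 (71.4%), and those not called in 15 of 20 (75%) and in 13 (65%). E2F matches stood in 3 of the 21 called lower (14.3%) and in 6 of the 20 not called (30%).

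**Figure D2:**
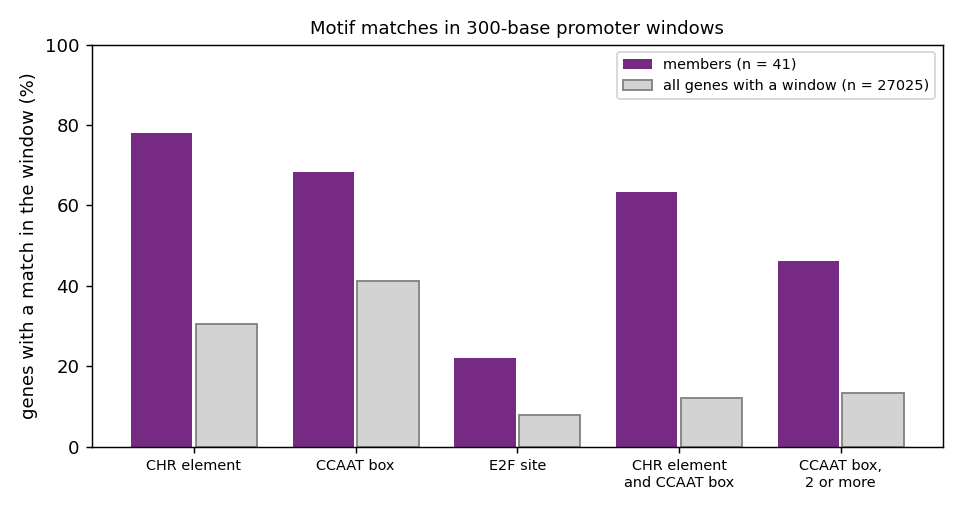
Share of genes, in percent, with a match in the 300-base promoter window, as bars for the 41 mitosis genes with a window and for all 27025 genes. The CHR bar stands at 78% for mitosis genes and at 30.6% for all genes.

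By step of mitosis, the summed level was lower in old HSCs in all 8 steps, as measured by the ratio of the group means. It was 2.57-fold lower for the transcription factors, 2.03-fold for cytokinesis, 1.94-fold for chromosome structure, 1.93-fold for spindle and centrosome, 1.91-fold for the chromosomal passenger complex, 1.88-fold for mitotic entry, 1.80-fold for kinetochore and checkpoint and 1.70-fold for anaphase. In each step all 3 old sums lay below all 3 young ones. These sums weigh abundant genes most, and by the median gene the order of the steps differed. By that measure the reductions were 2.78-fold for transcription factors, 2.01-fold for the passenger complex, 1.995-fold for the spindle and 1.91-fold for cytokinesis. They were 1.88-fold for anaphase, 1.80-fold for mitotic entry, 1.70-fold for the kinetochore and 1.68-fold for chromosome structure. Differences between steps were not tested. Chromosome structure genes took 58.8% ± 0.851 of the summed level in old and 59.6% ± 0.515 in young mice (SD, n = 3 each), with overlapping values. Kinetochore genes took 12.9% ± 0.981 in old and 12.0% ± 0.290 in young mice (SD, n = 3 each), which overlapped. The share of the 2 transcription factors did not overlap, at 0.724%, 0.624% and 0.442% in old libraries, against 0.760%, 0.891% and 0.806% in young ones. The shares of the other steps overlapped between groups.

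**Figure D3:**
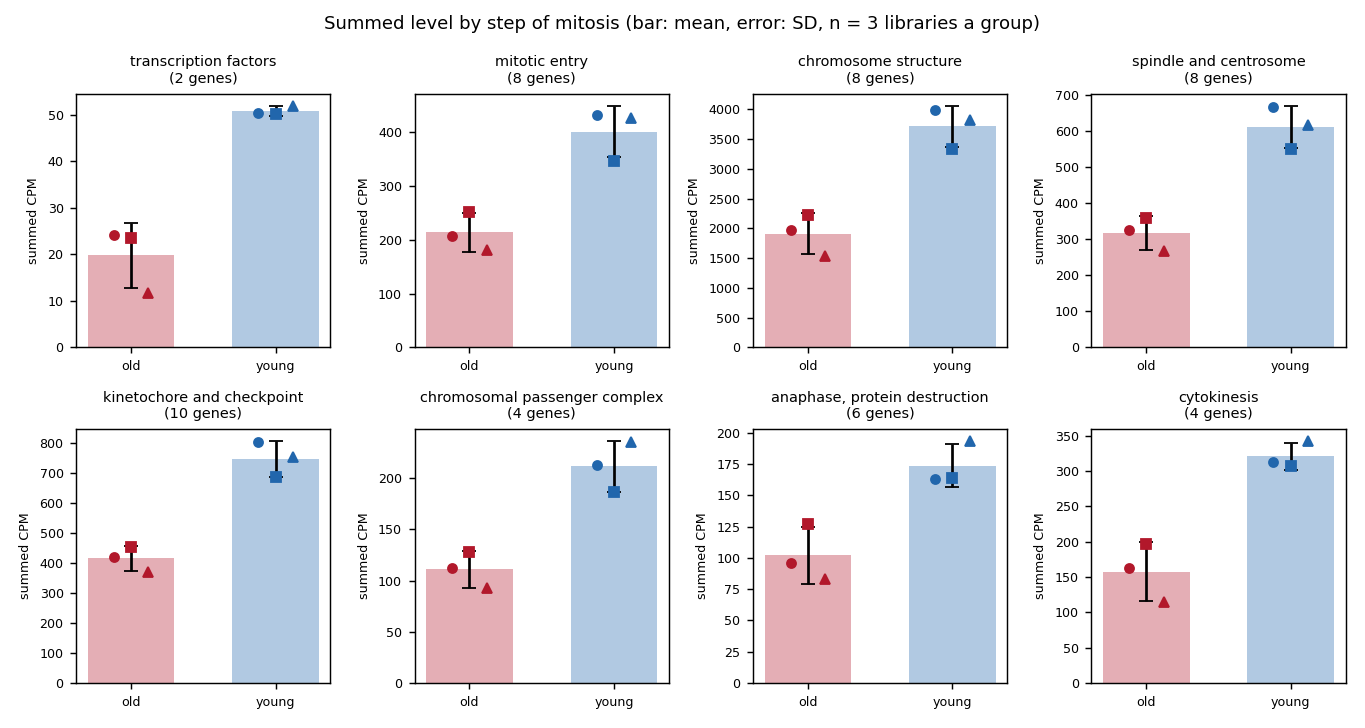
Summed level (CPM) of the genes of each step of mitosis, with a point per library, bars for the mean and error bars for the SD of 3 old and 3 young libraries. All 3 old points lie below all 3 young points in each of the 8 panels, by 1.70-fold in anaphase to 2.57-fold in the transcription factors, as ratios of the means.

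Both transcription factors of the mitotic programme were called lower. Mybl2 (B-Myb, chr2:163054687-163084688), which binds promoters with the MuvB complex, had 6.07, 2.60 and 3.85 CPM in the old libraries, against 15.0, 8.35 and 17.5 CPM in the young ones. The groups did not overlap, and the log2 fold change was −1.69 ± 0.41 (SE, edgeR adjusted p = 0.0420). Foxm1 (chr6:128362967-128376146), a forkhead factor that drives genes of G2 and M phase, had 18.01, 20.9 and 7.88 CPM in old libraries, against 35.4, 41.7 and 34.5 CPM in young ones, with no overlap and a log2 fold change of −1.26 ± 0.31 (SE, edgeR adjusted p = 0.0453). Both lay close to the threshold, with adjusted p between 0.00142 and 0.163 for Mybl2 and between 0.00112 and 0.126 for Foxm1 over the 14 alternatives. Neither was called without old replicate 1, 2 or 3 or without young replicate 1 or 3, and 1 of the pair, Mybl2, was called without young replicate 2. limma-voom called 1 of them, Foxm1, and the fit without a filter called none.

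Of 8 genes of mitotic entry, the A-type cyclin and its kinase were called lower. Ccna2 (cyclin A2, chr3:36564865-36572150) had 81.3, 93.7 and 67.4 CPM in old libraries, against 190.3, 142 and 161 CPM in young ones. Cdk1 (chr10:69335146-69352938), the kinase that starts mitosis, had 22.4, 20.6 and 23.1 CPM in old libraries, against 54.9, 48.2 and 42.0 CPM in young ones. Neither overlapped between groups, with log2 fold changes of −1.03 ± 0.16 for Ccna2 and −1.13 ± 0.19 for Cdk1 (SE, edgeR adjusted p = 0.00325 and 0.00511), and both were called in all 14 alternatives. Exons of Ccna2 overlap those of Exosc9 on the other strand over 12.5% of their length.

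The B-type cyclins had lower values in every old library but missed the threshold. Ccnb2 (cyclin B2, chr9:70407692-70421547) had 41.6, 52.4 and 40.4 CPM in old libraries, against 83.4, 55.4 and 84.8 CPM in young ones, with young replicate 2 close to the old values. The log2 fold change was −0.74 ± 0.20 (SE, edgeR adjusted p = 0.0603). Ccnb1 gave −0.88 ± 0.28 (SE, edgeR adjusted p = 0.122), and DESeq2 called both. Melk (chr4:44300876-44364675), a kinase of dividing progenitors, had the change nearest 0 in this step, with 8.73, 15.6 and 10.4 CPM in old and 12.9, 16.6 and 20.5 CPM in young libraries. Its groups overlapped, as did those of Ccnf (cyclin F) and of the phosphatases Cdc25b and Cdc25c, which activate Cdk1. Their log2 fold changes lay between −0.92 and −0.54, with edgeR adjusted p between 0.269 and 0.428.

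Of 8 genes of chromosome structure, 5 were called lower, among them the most abundant of all 50. Mki67 (chr7:135689784-135716361), whose product Ki-67 coats mitotic chromosomes and marks dividing cells, had 785, 898 and 594 CPM in old libraries, against 1760, 1486 and 1797 CPM in young ones. Top2a (chr11:98992943-99024189), the topoisomerase that untangles sister DNA, had 441, 513 and 319 CPM in old libraries, against 979.7, 840.5 and 918 CPM in young ones. In both genes the highest old library stayed well under the lowest young one, at 60.4% of it for Mki67 and 61.0% for Top2a. The log2 fold changes were −1.15 ± 0.14 for Mki67 (SE, edgeR adjusted p = 0.00086) and −1.10 ± 0.15 for Top2a (SE, edgeR adjusted p = 0.00171).

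The condensin core genes Smc4 and Smc2 had smaller log2 fold changes than Mki67 and Top2a, a difference that was not tested. Smc4 (chr3:69004738-69034623), an ATPase of both condensins, had 405, 432 and 350.4 CPM in old libraries, against 639, 554 and 547 CPM in young ones, without overlap. Its log2 fold change of −0.55 ± 0.11 (SE, edgeR adjusted p = 0.0170) was the nearest to 0 in this step, and its call was lost without old replicate 1 or 3 (adjusted p between 0.000526 and 0.130 over the 14 alternatives, DESeq2 and limma-voom among them). Its partner Smc2 gave −0.62 ± 0.15 (SE, edgeR adjusted p = 0.0387), and Cdca2, which brings a phosphatase to chromatin at mitotic exit, gave −0.81 ± 0.20 (SE, edgeR adjusted p = 0.0425). The condensin I subunits Ncapg, Ncapd2 and Ncaph lay between −1.05 and −0.64 and missed the threshold (edgeR adjusted p between 0.0641 and 0.178), each without overlap. The count of calls in this step was 2, 4 and 2 without old replicates 1, 2 and 3, and 4, 5 and 3 without young replicates 1, 2 and 3. Per kilobase of exon, Smc4 (75.9 CPM per kb) and Mki67 (75.4) stood side by side in old HSCs, against 111 for Smc4 and 167 for Mki67 in young ones.

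Of 8 genes of the spindle and centrosome, 5 were called lower. Tpx2 (chr2:152847964-152895321), which activates the kinase Aurka on spindle microtubules, had 58.3, 60.1 and 43.6 CPM in old libraries, against 106, 115 and 120.5 CPM in young ones. Ckap2 (chr8:22168160-22185819), a microtubule-binding protein of the spindle, had 27.9, 29.9 and 26.2 CPM in old libraries, against 61.3, 51.3 and 65.1 CPM in young ones. Their log2 fold changes were −1.08 ± 0.16 for Tpx2 and −1.08 ± 0.17 for Ckap2 (SE, edgeR adjusted p = 0.00250 and 0.00429), without overlap, and both were called in all 14 alternatives.

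Nusap1 and Hmmr, which bind spindle microtubules, were the most abundant of this step per kilobase. Nusap1 (chr2:119618298-119651244) had 66.1, 81.2 and 39.2 CPM in old libraries, against 152, 137 and 150.0 CPM in young ones, with a log2 fold change of −1.24 ± 0.22 (SE, edgeR adjusted p = 0.00758). Hmmr (chr11:40701395-40733422) had 94.3, 92.8 and 72.8 CPM in old libraries, against 170.2, 123 and 148 CPM in young ones. Its log2 fold change was −0.77 ± 0.16 (SE, edgeR adjusted p = 0.0170), with adjusted p up to 0.111 over the alternatives. The call of Hmmr was lost without any one of old replicates 1, 2 and 3 and young replicate 1. Gtse1, a microtubule-binding protein of G2 and mitosis, gave −1.32 ± 0.30 (SE, edgeR adjusted p = 0.0331) from a low level of 5.39 CPM in old and 13.5 CPM in young mice. The count of calls in this step was 3 without old replicate 1, 2 or 3, 4 without young replicate 1 or 2, and 5 without young replicate 3.

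The 3 kinases of the spindle poles were not called. Plk4, which starts centriole duplication, gave −0.77 ± 0.20 (SE, edgeR adjusted p = 0.0555), and Plk1 gave −0.92 ± 0.27 (SE, edgeR adjusted p = 0.0930), each without overlap. DESeq2 called both. Aurka (chr2:172356190-172370535), the Aurora kinase of centrosomes, had 10.6, 13.2 and 15.3 CPM in old libraries and 13.4, 10.1 and 19.1 CPM in young ones. These values were interleaved, and the log2 fold change was −0.13 ± 0.30 (SE, edgeR adjusted p = 0.891). It was 0.01 without old replicate 1 and 0.14 without young replicate 3.

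Of 10 genes of the kinetochore and its checkpoint, 6 were called lower. Knl1 (chr2:119047119-119105501), the outer kinetochore scaffold on which Bub proteins dock, had 97.1, 113 and 79.7 CPM in old libraries, against 239, 205 and 227 CPM in young ones. Its log2 fold change was −1.22 ± 0.14 (SE, edgeR adjusted p = 0.000597), and the highest old library reached 54.9% of the lowest young one. Bub1b (BubR1, chr2:118598211-118641591), a subunit of the complex that blocks anaphase, had 49.3, 57.9 and 34.0 CPM in old libraries, against 94.0, 96.0 and 101 CPM in young ones. The groups did not overlap, with a log2 fold change of −1.05 ± 0.19 (SE, edgeR adjusted p = 0.00809). Both genes were called in all 14 alternatives.

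The other genes called in this step were the checkpoint kinases Bub1 and Ttk, the checkpoint protein Mad2l1 and the microtubule-binding subunit Ndc80. Their log2 fold changes ran from −1.05 to −0.70 with edgeR adjusted p between 0.0169 and 0.0421. Each lost its call without some libraries, and Mad2l1 lost it without any one of the 6. Bub3 (chr7:131560222-131571895), the partner that carries Bub1 and BubR1 to kinetochores, changed least, with 77.9, 70.7 and 82.8 CPM in old libraries and 93.9, 84.6 and 94.1 CPM in young ones. The old values lay below the young ones by a narrow margin, and the log2 fold change was −0.24 ± 0.13 (SE, edgeR adjusted p = 0.431). Nuf2, Spc24 and Spc25, which form a complex with Ndc80, gave −0.75, −0.41 and −0.70 (edgeR adjusted p = 0.133, 0.346 and 0.371). The count of calls in this step was 2, 5 and 2 without old replicates 1, 2 and 3, and 3, 4 and 3 without young replicates 1, 2 and 3.

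In the chromosomal passenger complex, which corrects faulty attachments and later guides cytokinesis, 3 of 4 subunits were called lower. Aurkb (chr11:69045647-69051664), its Aurora kinase, had 20.6, 22.7 and 16.3 CPM in old libraries, against 56.9, 43.4 and 51.1 CPM in young ones. Cdca8 (borealin, chr4:124918465-124939311) had 31.1, 25.8 and 24.6 CPM in old libraries, against 60.6, 49.9 and 61.2 CPM in young ones. Incenp (chr19:9872296-9899551), the scaffold that binds the kinase, had 40.5, 37.2 and 31.4 CPM in old libraries, against 60.6, 62.4 and 85.9 CPM in young ones. None of these overlapped between groups.

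The log2 fold changes were −1.34 ± 0.20 for Aurkb, −1.07 ± 0.18 for Cdca8 and −0.94 ± 0.19 for Incenp (SE, edgeR adjusted p = 0.00311, 0.00591 and 0.0153). Incenp lost its call without any one of old replicates 1, 2 and 3 and young replicate 3 (adjusted p up to 0.0916 over the alternatives), which left 2 calls in the complex. Birc5 (survivin, chr11:117849251-117855743), the subunit that binds centromeric histone, had 20.4, 41.9 and 20.02 CPM in old libraries and 34.7, 30.6 and 37.8 CPM in young ones. Old replicate 2 was the highest of the 6, so the groups overlapped, and the log2 fold change was −0.33 ± 0.28 (SE, edgeR adjusted p = 0.629).

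Of 6 genes of anaphase and protein destruction, 2 were called lower, and the one mitosis gene with all old values above the young ones was in this step. Espl1 (separase, chr15:102296266-102324357), the protease that cuts cohesin, had 12.0, 5.28 and 6.73 CPM in old libraries, against 19.7, 18.7 and 34.8 CPM in young ones. The log2 fold change of Espl1 was −1.60 ± 0.36 (SE, edgeR adjusted p = 0.0293). Ube2c (chr2:164769898-164778822), the ubiquitin-conjugating enzyme of the anaphase-promoting complex, had 38.4, 68.6 and 37.7 CPM in old libraries, against 84.4, 90.8 and 91.0 CPM in young ones. Its log2 fold change was −0.89 ± 0.22 (SE, edgeR adjusted p = 0.0442), and 22.8% of its exon length is shared with Tnnc2 on the other strand. Over the alternatives the adjusted p ran from 0.000220 to 0.141 for Espl1 and from 0.00162 to 0.211 for Ube2c. The count of calls in this step was 1, 2 and 0 without old replicates 1, 2 and 3, and 1, 1 and 0 without young replicates 1, 2 and 3.

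Pttg1 (securin, chr11:43420250-43426251), which holds separase inactive until anaphase, had 18.4, 19.5 and 20.3 CPM in old libraries, against 13.7, 10.6 and 15.6 CPM in young ones. The old values were higher in all 3 libraries, an order found in 11.6% of all genes. The log2 fold change of 0.54 ± 0.25 missed the threshold (SE, edgeR adjusted p = 0.297), and it lay between 0.41 and 0.68 over the alternatives with none below the threshold. Cdca3, Cdca5 (sororin, which protects cohesin) and Cdc20, the activator of the anaphase-promoting complex, gave −0.94, −0.99 and −0.66 (edgeR adjusted p = 0.136, 0.307 and 0.321), each without overlap. For Cdc20 the gap was narrow, the highest old library reaching 99.5% of the lowest young one.

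Of 4 genes of cytokinesis, 3 were called lower. Ect2 (chr3:27097222-27153878), the exchange factor that activates RhoA to set the cleavage furrow, had 20.5, 22.3 and 19.4 CPM in old libraries, against 60.9, 53.7 and 68.4 CPM in young ones. It was 2.945-fold lower, a log2 fold change of −1.56 ± 0.18 (SE, edgeR adjusted p = 0.000555), and the highest old library reached 41.6% of the lowest young one. That was the widest relative gap among the 50 genes and the smallest p.

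Anln (anillin, chr9:22332012-22389188), a scaffold of the contractile ring, had 50.7, 69.5 and 40.3 CPM in old libraries, against 92.2, 97.3 and 112 CPM in young ones. Prc1 (chr7:80294450-80316259), which bundles microtubules of the central spindle, had 61.6, 75.1 and 36.6 CPM in old libraries, against 121, 107 and 104 CPM in young ones. Neither overlapped, with log2 fold changes of −0.91 ± 0.19 for Anln and −0.94 ± 0.22 for Prc1 (SE, edgeR adjusted p = 0.0209 and 0.0350). Their adjusted p reached 0.106 for Anln and 0.109 for Prc1 over the alternatives. Exons of Prc1 overlap those of Rccd1 on the other strand over 11.1% of their length. Racgap1, which works with Ect2 at the central spindle, gave −0.93 ± 0.24 (SE, edgeR adjusted p = 0.0585), and DESeq2 called it. The count of calls in this step was 1, 3 and 1 without old replicates 1, 2 and 3, and 3, 1 and 1 without young replicates 1, 2 and 3.

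More of the abundant genes than of the scarce ones were called, at like sizes of change. Of the 25 genes above the median level of 41.5 CPM, 20 were called lower, and of the 25 below it 8 were. The median log2 fold change was −0.94 above and −0.92 below that level, while the median SE was 0.18 above and 0.30 below it. Spread between libraries was wide in some genes that were not called, while Mybl2, Gtse1 and Espl1 were called at similar levels. The coefficient of variation was 67.3% in old libraries for Cdc25c and 62.4% in young libraries for Ccnf. Per kilobase of exon the lowest levels in old mice were those of Mybl2 (0.901 CPM per kb, with 2.94 in young mice) and Espl1 (0.914, with 2.79 in young). In young mice the lowest were those of Ccnf (2.445 CPM per kb) and Cdc25c (2.63).

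**Figure D4:**
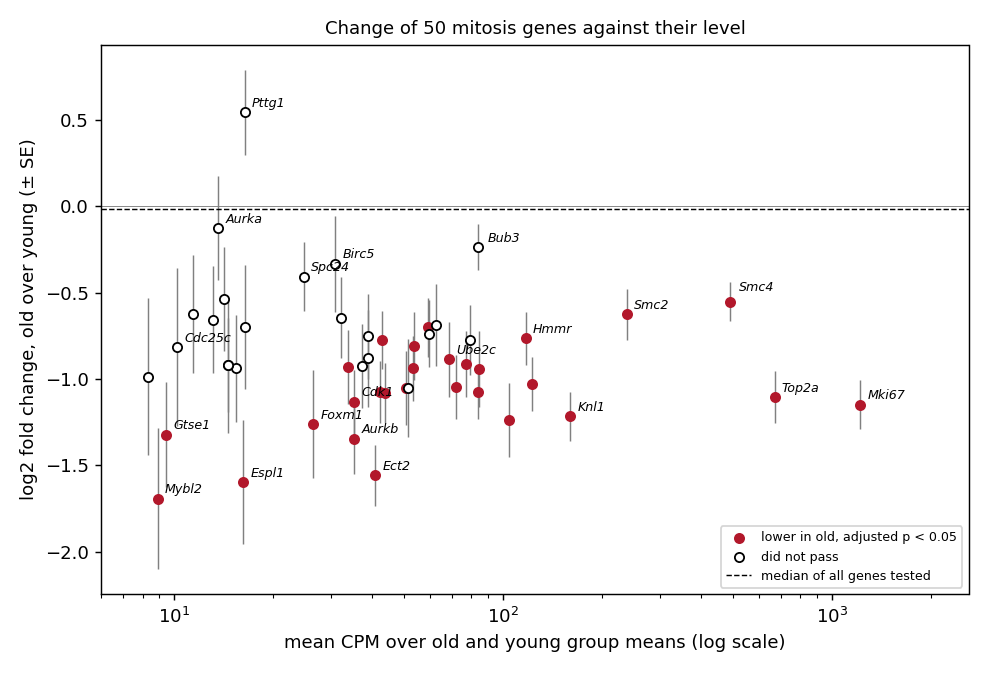
Log2 fold change of old over young (vertical axis, bars for SE) against mean CPM (horizontal axis, log scale) for the 50 mitosis genes, with the 28 called lower marked apart from the rest. The median change is −0.94 above and −0.92 below 41.5 CPM, and error bars are wider at low levels (median SE 0.30 below and 0.18 above).

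Of 91 mitosis genes outside the 50, listed by complex, 90 could be tested. Of these, 12 were called lower and none higher by edgeR, where 1.54% of all genes were called lower and 2.45% higher. Their median log2 fold change was −0.27, beside −0.02 over all genes tested. At an unadjusted p under 0.05, 35 were lower and 2 higher (7.63% lower and 8.84% higher over all genes). DESeq2 called 24 lower and 1 (Cdc14a) higher, and limma-voom called 11 lower and none higher. The count lower was 4, 8 and 3 without old replicates 1, 2 and 3, and 8, 11 and 7 without young replicates 1, 2 and 3. The difference in the share of calls between these genes and the 50 was not tested.

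Of the 12 genes called, 11 came from the lists of the kinetochore, cytokinesis, the spindle and mitotic entry. For the kinetochore, 3 of 16 were lower, led by Kntc1 of the Rod-Zw10-Zwilch complex (log2 fold change −1.32 ± 0.15, SE, edgeR adjusted p = 0.000554) and Sgo2a, a guardian of cohesin (−1.19 ± 0.20, SE, edgeR adjusted p = 0.00517). For cytokinesis, 4 of 13 were lower, led by the RhoA regulator Arhgap11a (−0.99 ± 0.15, SE, edgeR adjusted p = 0.00311) and citron kinase Cit (−1.22 ± 0.25, SE, edgeR adjusted p = 0.0184). For the spindle, 3 of 15 were lower, led by the centriole protein Stil (−1.10 ± 0.20, SE, edgeR adjusted p = 0.00916) and Spag5, or astrin (−1.07 ± 0.20, SE, edgeR adjusted p = 0.00999). Among 10 regulators of mitotic entry only Mastl, the Greatwall kinase, was called (−1.22 ± 0.27, SE, edgeR adjusted p = 0.0259), and Cdc25a, a phosphatase that activates Cdk kinases, missed the threshold (−0.90 ± 0.24, SE, edgeR adjusted p = 0.0592). Without 1 library, Kntc1, Sgo2a and Arhgap11a were called in all 6 fits. Stil and Spag5 were lost without old replicate 1 or 3, and Cit and Mastl were called in 2 and 1 of the 6 fits.

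The lists of the anaphase-promoting complex, cohesin, condensin II and the MuvB core held the remaining 1 call. In the anaphase-promoting complex and its regulators, none of 19 was called by edgeR, with a median log2 fold change of −0.06. At an unadjusted p under 0.05 it had 1 gene lower and 1 higher, the same numbers as DESeq2, and limma-voom called none. The 2 smallest p in that list were those of its inhibitor Fbxo5 (−1.06 ± 0.28, SE, edgeR adjusted p = 0.0585) and of the phosphatase Cdc14a (0.47 ± 0.12, SE, edgeR adjusted p = 0.0615). Of 9 cohesin genes Stag1 was called (−0.44 ± 0.11, SE, edgeR adjusted p = 0.0433), a call that held in 1 of the 6 fits without a library, and Smc3 was not (−0.33 ± 0.11, SE, edgeR adjusted p = 0.146), with a list median of −0.06. Of 3 condensin II genes none was called by edgeR or limma-voom, although all 3 had an unadjusted p under 0.05 and DESeq2 called 1, Ncapg2 (−0.62 ± 0.20, SE, edgeR adjusted p = 0.118), while Ncapd3 gave −0.30 ± 0.12 (SE, edgeR adjusted p = 0.213). Of the 5 MuvB core genes none was called by edgeR, DESeq2 or limma-voom and none had an unadjusted p under 0.05, with Lin37 at −0.59 ± 0.31 and Lin9 at −0.20 ± 0.20 (SE, edgeR adjusted p = 0.380 and 0.693).

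**Figure D5:**
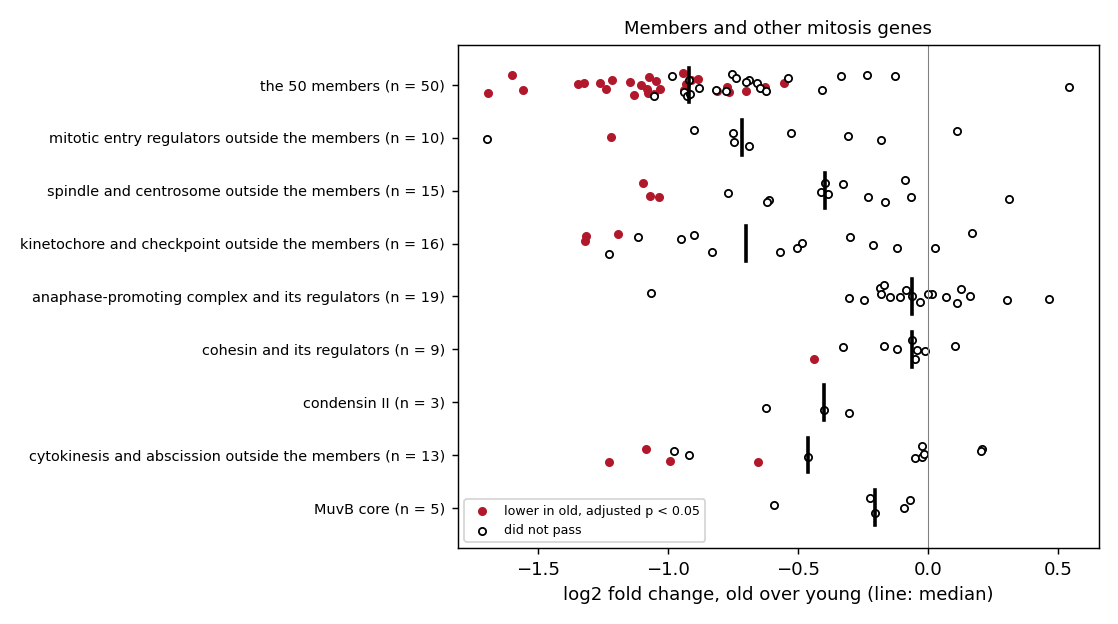
Log2 fold change of old over young for the 50 genes in one row and for each list of other mitosis genes, with a point per gene and a line at each median. The median of the 50 lies at −0.92, and those of the anaphase-promoting complex and of cohesin lie at −0.06.

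In the authors' deposited table, whose log2 fold changes run as young over old, 49 of the 50 genes had a positive value, and 28 had an adjusted p under 0.05. Of these 28, 24 were also called here, while Smc4, Prc1, Mybl2 and Foxm1 were called here and not in the authors' deposited table. Conversely Ncapg, Racgap1, Ccnb2 and Plk4 were called in the authors' deposited table and not here. For Plk4, Mybl2, Prc1 and Racgap1 the mean normalised count was 0.842, 0.901, 0.944 and 0.971 of the base mean (a normalised signal) in that table. For Smc4, Foxm1, Ncapg and Ccnb2 it lay within 2% of it. The part of this in the calls was not tested. Knl1 and Ttk, called in both, stood at 0.856 and 0.907 of the base mean. For Knl1 the authors' log2 fold change was 1.75, the largest of the 50, where the old over young value here was −1.22. By the authors' deposited table, 2.6% of the 15649 genes with an adjusted p were called lower in old. The authors' deposited table gave Ect2 a log2 fold change of 1.32 (adjusted p = 4.02e-10) and Prc1 one of 0.39 (adjusted p = 0.661).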

How the data were processed

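The 3 old and 3 young low-input libraries of sorted HSCs were read from one end over 50 bases. The samples of an age are biological replicates, per the series design. GRCm38, Salmon, DESeq2, MultiQC and FastQC are named in the submitters' processing notes, with no version or role. The estimated counts that the authors deposited were already whole numbers, so none was rounded. A second table of the authors held, as deposited, a base mean (a normalised signal), log2 fold changes with standard errors, a test score and p-values with adjusted p-values. Its base mean lay within 2% of the mean normalised count for 39 of the 50 genes, and for 77.7% of all genes. Its sign was set by comparison with the counts, as 90.6% of tested genes had the opposite sign to old over young. The strand setting of the counting is not given in the sources used here.

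Columns were matched to samples by title. The title and the description of young replicate 2 carry different library numbers, and the fit without it called 22 of the 50 genes. The replicate numbers were given in accession order and do not pair mice. Ensembl identifiers were matched to GRCm38 annotation, which named 16301 of 16312. The fit used edgeR 4.0.16 under R 4.3.3, with TMM scaling, edgeR's filter (minimum count 10, minimum total 15), the two-sided quasi-likelihood test and Benjamini-Hochberg adjustment, called at 0.05. SE is the log2 fold change over the square root of the F statistic. CPM are counts relative to the TMM-scaled library size. The fit was tested on simulated data. Alternatives were other scalings and filters, DESeq2 1.42.0, limma 3.58.1 voom with and without quality weights, and leaving out each library. The alternatives of the named genes outside the 50 were added after the data were seen.

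The 50 genes, the lists and the markers were chosen with earlier results of these data known, and 1 HSC marker is not reported here. Values in every library are given for the 2 genes of each step with the smallest p, the 2 with the highest CPM per kilobase and the one nearest 0, and 2 genes of each further list are named by p. Promoter windows were not used here for 9 of the 50 genes. Ccnb1, Mybl2, Mad2l1 and Mki67 have pseudogenes at least 95% identical over 200 bases or more, none of them in the count table, so their counts are less certain. Ncapg shares 13.4% and Cdc25c 12.7% of exon length with a gene on the other strand.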

Additional observations from a re-analysis of the deposited data

How the results depend on the processing

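The 8 alternatives with all 6 libraries called 21 to 37 of the 50 genes lower, against 28 in the reported fit, and none higher. Over all 14 alternatives 48 genes kept a negative log2 fold change, the exceptions being Pttg1 and Aurka, and 12 of the 28 calls held in all. Aurka turned to 0.01 without old replicate 1 and to 0.14 without young replicate 3, and its values without 1 library ran from −0.32 to 0.14. DESeq2 called more genes: 487 lower and 613 higher over all genes, 24 lower and 1 higher among the other mitosis genes, and 4 of mitotic entry, as did limma-voom with quality weights (4). Without a filter no transcription factor, 3 genes of chromosome structure and 1 of anaphase were called, and limma-voom called 1 transcription factor with and 1 without quality weights. Leaving out 1 library each gave 79 to 167 lower and 166 to 308 higher over all genes, 12 to 22 lower and none (0 to 0) higher among the 50, and 3 to 11 lower and none (0 to 0) higher among the other mitosis genes. By step these fits called 0 to 1 transcription factors, 2 to 3 genes of mitotic entry, 2 to 5 of chromosome structure, 3 to 5 of the spindle, 2 to 5 of the kinetochore, 2 to 3 of the passenger complex, 0 to 2 of anaphase and 1 to 3 of cytokinesis. The median log2 fold change of the 50 lay between −1.08 and −0.73, and the ratio of the summed levels between 0.482 and 0.573. The cause of these shifts was not tested, except that a fit without a library has fewer samples. No paired analysis was possible because the replicate numbers only follow the order of the samples. The shallowest library, old replicate 2, had 12494557 counts. The median SE was 0.30 for the 25 less abundant and 0.18 for the 25 more abundant of the 50 genes, and the part of depth in missed calls was not tested.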

Other observations

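Ratios between partners of one complex or step are given as values. The 7 pairs were picked after their values were seen, each is a ratio of levels per kilobase of exon, and 3 libraries against 3 cannot give an exact permutation p below 0.1 (20 arrangements, two-sided, 0.117 after Benjamini-Hochberg adjustment over the pairs). The securin to separase ratio (Pttg1 over Espl1) was 6.73, 16.2 and 13.2 in old libraries, against 3.04, 2.48 and 1.96 in young ones, with every old value above every young one (exact permutation p = 0.1). The ratio of the Aurora kinases (Aurka over Aurkb) was 0.788 ± 0.266 in old and 0.327 ± 0.0931 in young mice (SD, n = 3 each, exact permutation p = 0.1). In the passenger complex Birc5 over Aurkb was 1.17 ± 0.381 in old and 0.593 ± 0.0590 in young mice (SD, n = 3 each, exact permutation p = 0.1). Bub3 over Bub1 was 1.54 ± 0.537 in old and 0.842 ± 0.167 in young mice (SD, n = 3 each, exact permutation p = 0.1). Spc24 over Ndc80 was 1.71 ± 0.264 in old and 1.32 ± 0.0556 in young mice, and Smc4 over Top2a was 1.65 ± 0.227 in old and 1.10 ± 0.0599 in young mice (SD, n = 3 each, exact permutation p = 0.1 for both). In all 6 of these pairs the old libraries lay above the young ones. In each the upper gene had the less reduced or, for Pttg1, the opposite change of the pair, as given above. The direction of these ratios therefore restates those values, and the count of 6 is no separate result. Cyclin B1 over cyclin A2 (Ccnb1 over Ccna2) was 0.318 ± 0.0967 in old and 0.297 ± 0.0276 in young mice, with overlapping groups (SD, n = 3 each, exact permutation p = 0.8).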
